A study of Mus musculus with 6 samples.

Results

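Interferon-stimulated genes are genes whose transcription is switched on by interferons, and 50 of them were followed here in whole kidneys of control mice and of mice with diabetic kidney disease (DKD). They were taken by gene symbol from a count table of 55401 Ensembl gene identifiers, and all 50 symbols were found. They comprise 36 antiviral genes of the kind that type I interferon induces, 4 interferon regulatory factors (Irf1, Irf7, Irf8 and Irf9), and 10 GTPases classically induced by interferon-gamma. The groups are the genotypes "Control" and "DKD", with 3 kidney libraries each, and the title of the series names SETDB2, SMAD3 and podocytes. No strain, sex, age, allele, diabetogenic treatment or duration of diabetes is given in the sources used here, so the model behind the DKD label cannot be described further. Nor do the labels say that the 3 libraries of a group came from separate mice, and the p-values measure the spread between these libraries only. Where the text below speaks of a kidney of a group, it means 1 such library. Replicates are given below in the order 1, 2, 3 of their labels, an order that carries no ranking.

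Type I interferons (interferon-alpha and interferon-beta) bind the receptor made of IFNAR1 and IFNAR2, and the kinases JAK1 and TYK2 then activate transcription factors, among them STAT2, which joins IRF9 in the complex ISGF3. ISGF3 binds the interferon-stimulated response element (ISRE) of antiviral genes, whose products sense viral RNA, degrade it, block its translation or stop virus entry. Interferon-gamma, made mainly by T and NK cells, signals through IFNGR1 and IFNGR2 to the gamma-activated site (GAS) of its target genes, and among these in mice are the guanylate-binding proteins (GBPs) and the immunity-related GTPases (IRGs) that attack the vacuoles of intracellular parasites. The groups of targets overlap, since many GTPases also answer to type I interferon and many antiviral genes to interferon-gamma. In the kidney, tubular cells, endothelium, podocytes and resident macrophages can all respond.

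Promoters of 8 members are shown, all with an ISRE match, and only those of Oas1a, Igtp, Irgm2 and Tgtp1 with a GAS match as well. They come from RefSeq windows on mouse build GRCm38.p6 that reach from 250 bases before to 50 bases after an annotated transcription start, and the 160 bases before the start are printed 5′ to 3′ on the gene's own strand. All of these stretches lie upstream of the first exon of the transcript concerned. The positions are chr4:156200819-156200978 (minus strand) for Isg15, chr19:34640729-34640888 (plus strand) for Ifit1, chr19:34583369-34583528 (plus strand) for Ifit3 and chr5:120907526-120907685 (minus strand) for Oas1a. Those of the GTPases are chr3:142620503-142620662 (plus strand) for Gbp2, chr11:58199396-58199555 (plus strand) for Igtp, chr11:58214817-58214976 (plus strand) for Irgm2 and chr11:48992247-48992406 (minus strand) for Tgtp1. Capitals mark matches to the ISRE core, GAAANNGAAA or its reverse complement TTTCNNTTTC, and to the GAS core, TTCNNNGAA, which reads the same way on both strands.
Isg15: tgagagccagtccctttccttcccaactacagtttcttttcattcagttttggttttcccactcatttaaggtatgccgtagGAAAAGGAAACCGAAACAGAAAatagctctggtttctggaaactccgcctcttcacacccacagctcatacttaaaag
Ifit1: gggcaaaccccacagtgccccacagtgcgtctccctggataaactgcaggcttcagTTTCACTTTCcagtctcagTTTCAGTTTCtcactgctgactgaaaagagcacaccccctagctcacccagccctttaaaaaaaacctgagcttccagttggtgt
Ifit3: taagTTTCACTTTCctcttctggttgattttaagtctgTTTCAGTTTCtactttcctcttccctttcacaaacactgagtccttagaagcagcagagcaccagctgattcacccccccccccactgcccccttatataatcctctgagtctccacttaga
Oas1a: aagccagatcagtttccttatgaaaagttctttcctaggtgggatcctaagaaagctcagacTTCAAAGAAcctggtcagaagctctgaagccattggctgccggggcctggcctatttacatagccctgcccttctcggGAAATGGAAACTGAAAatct
Gbp2: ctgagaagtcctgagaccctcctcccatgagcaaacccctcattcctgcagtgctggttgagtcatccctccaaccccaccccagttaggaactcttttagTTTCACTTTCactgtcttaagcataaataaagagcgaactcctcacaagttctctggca
Igtp: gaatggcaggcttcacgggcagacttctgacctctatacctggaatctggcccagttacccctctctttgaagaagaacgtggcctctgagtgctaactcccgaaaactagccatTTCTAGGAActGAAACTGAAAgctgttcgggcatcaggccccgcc
Irgm2: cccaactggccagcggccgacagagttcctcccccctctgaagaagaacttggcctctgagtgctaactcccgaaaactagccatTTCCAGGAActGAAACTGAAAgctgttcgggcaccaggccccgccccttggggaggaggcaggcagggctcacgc
Tgtp1: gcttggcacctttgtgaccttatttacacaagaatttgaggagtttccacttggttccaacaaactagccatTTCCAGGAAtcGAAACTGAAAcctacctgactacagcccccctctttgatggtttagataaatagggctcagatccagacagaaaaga

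Isg15 had 3 overlapping ISRE matches whose first bases lay 78, 72 and 66 bases before the start, and the pair in Oas1a also overlapped, at 20 and 14 bases. In Igtp, Irgm2 and Tgtp1 a GAS match ended 2 bases before an ISRE match, an arrangement found in 3 of 45 member windows and in 5 of the 32851 windows of all genes. Igtp and Irgm2 are neighbouring paralogs whose printed stretches share an identical run of 38 bases, so these are not independent occurrences. An ISRE match was present for 21 of the 37 members that had a window (56.8%), against 3.99% of 27025 genes with a window. A GAS match was present for 37.8% of the 37 members and 9.55% of all genes.

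Both motifs occurred in both classes. An ISRE match was found in 14 of 26 antiviral genes with a window (53.8%) and in 7 of 7 GTPases, and a GAS match in 8 of 26 and 4 of 7, respectively. None of the 4 interferon regulatory factors had an ISRE match, and Irf1 and Irf8 had a GAS match. The 13 members without a window were Usp18, Dhx58, Oas2, Mx1, Mx2, Ifi27, Ifi27l2a, Parp9, Parp14, Rtp4, Gbp4, Gbp6 and Iigp1. A match describes these letters within these windows and is not a measured binding site.

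Levels are in CPM, gene counts divided by the TMM-scaled library size and put on the usual scale of that unit. Library totals ran from 64816622 to 77417638 counts, so that the limit that a count of 0 allows (3 counts) lay between 0.0353 and 0.0505 CPM. DKD replicate 1 stood apart from the other DKD libraries. Its median correlation was 0.943 with its own group and 0.960 with the controls, and 12 hepatocyte markers summed to 4744 CPM in it against 540 to 717 in the other 5 libraries. The part of these transcripts in the results was not tested. Adjusted p-values are therefore given below with and without this library for the members whose call depends on it.

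Most interferon-stimulated genes had higher mean levels in DKD kidneys, and the antiviral genes had the larger median difference. Of 49 members that passed the filter on low counts, 48 had a higher fitted level in DKD and 1, Ifitm2, a lower one, against 52.4% of 19197 tested genes with a higher fitted level. Their median log2 difference was 1.26, against 0.02 over all tested genes, with a range from -0.06 (Ifitm2) to 2.79 (Oasl1 and Irf7). For 27 members the difference was over 1 on the log2 scale, a size reached upward by 11.0% of all tested genes. All 3 DKD libraries lay above all 3 control libraries for 32 members, against 13.8% of all genes. The 1 member left out by the filter was Ifi44l, at 0, 0.182 and 0 CPM in controls and 0.25, 0.0519 and 0.0943 CPM in DKD.

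No member passed the edgeR quasi-likelihood test with all 6 libraries at a Benjamini-Hochberg adjusted p of 0.05, and none of the 19197 genes did (0% called). Adjusted p-values of the members ran from 0.0978 to 0.904. At an unadjusted p under 0.05, 38 members were higher, against 12.2% of all genes. DESeq2 called 34 members higher (6.22% of all genes) and limma-voom with sample quality weights called 36 (9.94%). Without DKD replicate 1, edgeR called 35 members higher and 0 lower, where 9.67% of all genes were called higher, and the median log2 difference of the members was 1.60. The call thus depends on that library and on the tool, while the median differences of the antiviral genes and of the GTPases stayed above 0 in every alternative run.

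**Figure D1:**
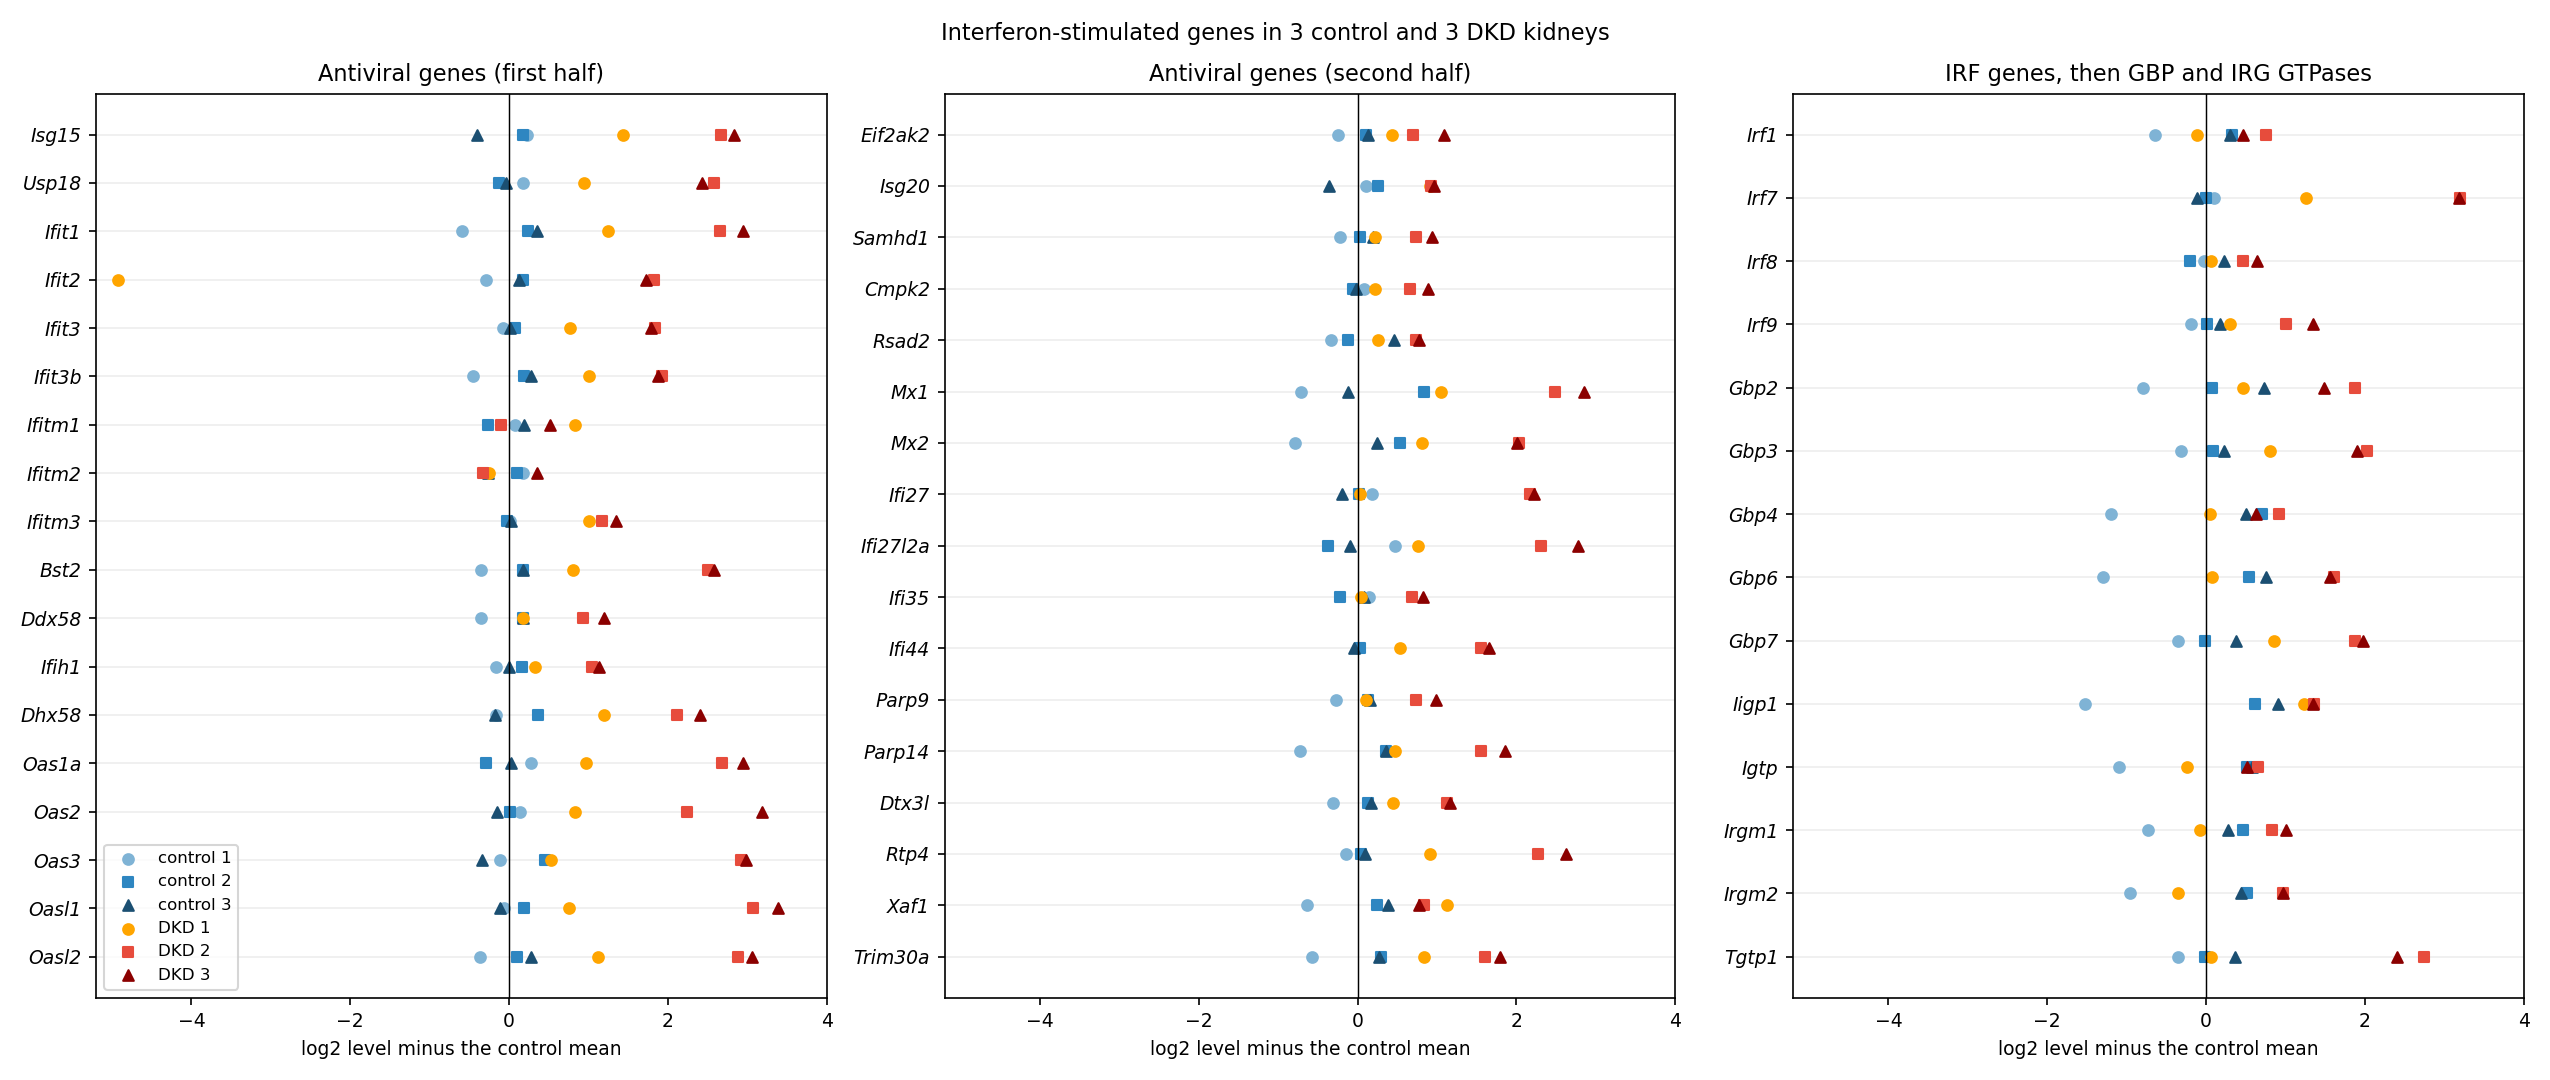
Level of each member in each library, as the log2 difference from the mean of the 3 controls, for antiviral genes in 2 panels and for interferon regulatory factors and GTPases in the third; circles, squares and triangles are replicates 1, 2 and 3, in blue for control and orange to red for DKD. DKD replicates 2 and 3 lie above all controls for 45 members, while DKD replicate 1 lies above them for 33 and control replicate 1 lies low among the GTPases.

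Isg15 encodes a ubiquitin-like protein that is attached to other proteins during an antiviral response, and Usp18 is the protease that removes it and also dampens IFNAR2 signalling. Isg15 was at 1.77, 1.71 and 1.14 CPM in controls and at 4.12, 9.77 and 10.9 CPM in DKD. Usp18 was at 2.47, 2.02 and 2.14 CPM in controls and at 4.26, 13.3 and 12.0 CPM in DKD. For both genes every DKD kidney lay above every control, with replicate 1 the lowest of the DKD group. The log2 difference was 2.42 ± 0.40 (SE) for Isg15 and 2.16 ± 0.42 for Usp18, each with an edgeR adjusted p of 0.103. Without DKD replicate 1 the adjusted p was 0.00172 for Isg15 and 0.00115 for Usp18.

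Of the IFIT proteins, IFIT1 binds viral RNA that lacks the host's cap methylation and blocks its translation. Ifit1 was at 2.29, 4.09 and 4.42 CPM in controls and 8.29, 21.9 and 26.9 CPM in DKD, a log2 difference of 2.40 ± 0.47 (edgeR adjusted p = 0.106, and 0.00257 without DKD replicate 1). Ifit3 was at 15.4, 17.1 and 16.4 CPM in controls and 27.8, 58.6 and 56.5 CPM in DKD, a log2 difference of 1.55 ± 0.27 (adjusted p = 0.103, and 0.000426 without DKD replicate 1). Ifit3b was at 3.90, 6.14 and 6.49 CPM in controls and 10.8, 20.4 and 19.8 CPM in DKD, a log2 difference of 1.62 ± 0.30 (adjusted p = 0.103, and 0.00417 without DKD replicate 1). The groups did not overlap for these 3 genes. Ifit3 and Ifit3b are close paralogs between which the counting could have divided reads, so their separate values are uncertain.

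Ifit2 departed from its family in 1 kidney, and it is described because of that value, which was seen first. It was at 7.78, 10.7 and 10.4 CPM in controls and at 0.289, 33.7 and 31.6 CPM in DKD, where replicate 1 was lowest. These levels rest on 22 counts in DKD replicate 1, where the other 5 libraries had 462 to 2685. With all 6 libraries the log2 difference was 1.18 ± 1.30 (edgeR adjusted p = 0.652), and without DKD replicate 1 it was 1.75 ± 0.16 (adjusted p = 0.00177). It was the 1 member of the tested 49 that lay below all controls in DKD replicate 1, whose Ifit1, Ifit3 and Ifit3b levels lay above all controls.

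The 7 genes of the OAS and PKR branch had a median log2 difference of 2.42, with a range from 0.76 to 2.79. OAS proteins make the 2′-5′ linked oligoadenylates that activate RNase L, OASL1 is a relative without that enzyme activity, PKR (Eif2ak2) halts translation, and Isg20 is an exonuclease. Oas1a was at 2.89, 1.95 and 2.43 CPM in controls and 4.71, 15.5 and 18.6 CPM in DKD. Oasl1 was at 1.60, 1.91 and 1.54 CPM in controls and 2.86, 14.3 and 17.8 CPM in DKD. Oasl2 was at 4.02, 5.58 and 6.26 CPM in controls and 11.3, 38.5 and 43.7 CPM in DKD. In each of these genes all DKD kidneys were above the controls, and replicate 1 lay between the controls and the other DKD kidneys.

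The log2 difference was 2.42 ± 0.50 for Oas1a (edgeR adjusted p = 0.106), 2.79 ± 0.63 for Oasl1 (0.119) and 2.56 ± 0.51 for Oasl2 (0.108). Without DKD replicate 1 the adjusted p was 0.00128, 0.000547 and 0.000696, respectively. Oas2 was at 2.71, 2.47 and 2.20 CPM in controls and 4.39, 11.7 and 22.6 CPM in DKD (log2 difference 2.39, edgeR adjusted p = 0.12, and 0.00277 without DKD replicate 1), the gene of this branch in which DKD replicates 2 and 3 were farthest apart. Oas3 was at 0.269, 0.409 and 0.226 CPM in controls and 0.433, 2.39 and 2.5 CPM in DKD (2.55, adjusted p = 0.14, and 0.00424).

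Eif2ak2 and Isg20 showed smaller differences and less spread among DKD kidneys. Eif2ak2 was at 10, 12.9 and 13.0 CPM in controls and 16.0, 19.4 and 25.3 CPM in DKD (log2 difference 0.76, edgeR adjusted p = 0.139, and 0.0188 without DKD replicate 1). Isg20 was at 1.23, 1.38 and 0.889 CPM in controls and 2.18, 2.21 and 2.26 CPM in DKD (0.93), so that its DKD kidneys were nearly level. All 7 genes had every DKD kidney above every control, against 13.8% of all genes. DESeq2 (6.22% of all genes) and limma-voom (9.94%) each called all 7 higher, and edgeR without DKD replicate 1 (9.67%) called 6, the exception being Isg20 (adjusted p = 0.0803).

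The cytosolic RNA sensors include a pair of signalling receptors and their regulator. Ddx58 (RIG-I) was at 22.8, 32.9 and 32.9 CPM in controls and 32.7, 55.5 and 66.3 CPM in DKD, with replicate 1 of DKD inside the control range (log2 difference 0.80 ± 0.27, edgeR adjusted p = 0.193). Ifih1 (MDA5) was at 13.1, 16.4 and 14.6 CPM in controls and 18.3, 30.3 and 32.1 CPM in DKD (0.87 ± 0.22, adjusted p = 0.133). Dhx58 (LGP2), which lacks the signalling domain and tunes the other sensors, was at 1.45, 2.11 and 1.44 CPM in controls and 3.81, 7.23 and 8.84 CPM in DKD (1.99 ± 0.36, adjusted p = 0.103). Without DKD replicate 1 the adjusted p was 0.0115 for Ddx58, 0.00381 for Ifih1 and 0.00326 for Dhx58.

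The membrane proteins that block virus entry or release differed among themselves. Ifitm3, which stops fusion of incoming virus, was at 14.0, 13.6 and 14.2 CPM in controls and 28.2, 31.3 and 35.4 CPM in DKD, means of 13.9 ± 0.289 and 31.6 ± 3.65 (SD, n = 3 each). The Ifitm3 groups were far apart, and here DKD replicate 1 was close to the other DKD kidneys. Its log2 difference of 1.18 ± 0.11 had the smallest p of all members (1.34e-05 in the edgeR quasi-likelihood test, adjusted p = 0.0978, and 0.00157 without DKD replicate 1), and it was the 1 member called when the filter on low counts was dropped (adjusted p = 0.048). Bst2 (tetherin), which holds budding virus at the cell surface, was at 8.84, 12.7 and 12.8 CPM in controls and 19.8, 64.1 and 67.7 CPM in DKD. Its log2 difference was 2.14 ± 0.47 (adjusted p = 0.119, and 0.000742 without DKD replicate 1).

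Close relatives of Ifitm3 gave overlapping groups. Ifitm1 was at 3.28, 2.56 and 3.55 CPM in controls and 5.53, 2.89 and 4.45 CPM in DKD (log2 difference 0.45 ± 0.29, edgeR adjusted p = 0.418). Ifitm2 was at 34.1, 32.5 and 25.1 CPM in controls and 25.5, 24.1 and 38.6 CPM in DKD (-0.06 ± 0.21, adjusted p = 0.904). Per kilobase of exon, Ifitm2 had the highest control level of the members, at 46.7 CPM per kilobase, followed by Ifi27 at 24.3 and Ifitm3 at 20.5. In DKD the per-kilobase levels were 44.9 for Ifitm2, 82.0 for Ifi27 and 46.7 for Ifitm3, so that Ifi27 was first.

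Mx1 and Mx2 are dynamin-like GTPases that trap viral nucleocapsids, and per kilobase of exon Mx1 had the lowest control level of the tested members after Oas3 (0.198 and 0.0426 CPM per kilobase). Mx1 was at 0.404, 1.23 and 0.621 CPM in controls and 1.43, 3.92 and 5.07 CPM in DKD (log2 difference 2.21 ± 0.59, edgeR adjusted p = 0.14, and 0.0126 without DKD replicate 1). Mx2 was at 0.64, 1.65 and 1.34 CPM in controls and 2.00, 4.68 and 4.63 CPM in DKD (1.64 ± 0.47, adjusted p = 0.152, and 0.0188). The groups did not overlap for either gene.

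The nucleotide enzymes gave some of the smaller differences. Samhd1, which depletes deoxynucleotides, was at 20.8, 24.7 and 27.5 CPM in controls and 28.1, 40.3 and 46.4 CPM in DKD (log2 difference 0.65 ± 0.20, edgeR adjusted p = 0.162). Rsad2 (viperin), which makes a chain-terminating nucleotide, was at 13.0, 15.0 and 22.4 CPM in controls and 19.6, 27.2 and 28.0 CPM in DKD, with overlap (0.57 ± 0.23, adjusted p = 0.248). Cmpk2, the kinase encoded beside Rsad2 that supplies its substrate, was at 13.7, 12.5 and 12.9 CPM in controls and 15.2, 20.6 and 24.1 CPM in DKD (0.62 ± 0.18, adjusted p = 0.155). Without DKD replicate 1 edgeR called Samhd1 (adjusted p = 0.0114) and Cmpk2 (0.011) higher, and Rsad2 had an adjusted p of 0.0747.

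Among the IFI genes, Ifi27 was at 40.1, 35.9 and 30.8 CPM in controls and 36.1, 160 and 165 CPM in DKD. DKD replicate 1 was thus inside the control range while the other DKD kidneys were far above it, and the log2 difference of 1.76 ± 0.55 had an edgeR adjusted p of 0.183, against 0.000546 without that library. Ifi27l2a was at 2.09, 1.15 and 1.40 CPM in controls and 2.55, 7.54 and 10.5 CPM in DKD (2.15 ± 0.52, adjusted p = 0.127, and 0.00395 without DKD replicate 1). Ifi44 was at 7.57, 7.67 and 7.29 CPM in controls and 10.8, 22.2 and 23.6 CPM in DKD, without overlap (1.33 ± 0.28, adjusted p = 0.111, and 0.0014 without DKD replicate 1). Ifi35, a regulator of innate signalling, was at 13.7, 10.7 and 13.1 CPM in controls and 12.8, 20.0 and 22.0 CPM in DKD, with DKD replicate 1 inside the control range (0.55, adjusted p = 0.238, and 0.0202 without that library).

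Parp9 and Dtx3l form a complex of an ADP-ribosyltransferase relative and a ubiquitin ligase, and Parp14 is a mono-ADP-ribosyltransferase. Parp14 was at 8.73, 18.4 and 18.6 CPM in controls and 20.0, 42.6 and 52.0 CPM in DKD (log2 difference 1.33 ± 0.43, edgeR adjusted p = 0.185). Dtx3l was at 7.71, 10.5 and 10.7 CPM in controls and 12.9, 20.9 and 21.4 CPM in DKD (0.93 ± 0.23, adjusted p = 0.133). Parp9 was at 16.1, 21.1 and 21.4 CPM in controls and 20.8, 32.1 and 38.6 CPM in DKD (0.64 ± 0.23, adjusted p = 0.208). Control replicate 1 was the lowest library of all 6 for each of these genes, and without DKD replicate 1 edgeR called all 3 higher, with adjusted p of 0.0217, 0.00863 and 0.0148.

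Rtp4, a receptor-transporting protein, was at 3.20, 3.62 and 3.75 CPM in controls and 6.65, 17.1 and 22.0 CPM in DKD (log2 difference 2.11 ± 0.41, edgeR adjusted p = 0.103, and 0.00102 without DKD replicate 1). Trim30a, a TRIM family ubiquitin ligase, was at 4.34, 7.94 and 7.77 CPM in controls and 11.5, 19.6 and 22.4 CPM in DKD (1.41 ± 0.32, adjusted p = 0.114, and 0.00962 without DKD replicate 1). Xaf1, a proapoptotic factor, was at 5.10, 9.45 and 10.4 CPM in controls and 17.4, 14.1 and 13.5 CPM in DKD (0.85 ± 0.27, adjusted p = 0.175). Xaf1 differed from most members in that DKD replicate 1 was the highest DKD library, and leaving it out gave an adjusted p of 0.135. DKD replicate 1 was the lowest DKD library for 46 of the 49 tested members, the exceptions being Xaf1, Ifitm1 and Ifitm2, against 41.2% of all tested genes.

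The 4 interferon regulatory factors covered the whole span. Irf7, the factor that amplifies type I interferon production and is itself an ISGF3 target, was at 10, 9.33 and 8.66 CPM in controls and 22.3, 85.7 and 85.4 CPM in DKD, means of 9.34 ± 0.684 and 64.5 ± 36.5 (SD, n = 3 each). Every DKD kidney was above every control, and the log2 difference of 2.79 ± 0.52 had an edgeR adjusted p of 0.106, or 7.09e-05 without DKD replicate 1. Irf9, the DNA-binding subunit of ISGF3, was at 15.9, 18.2 and 20.6 CPM in controls and 22.3, 36.2 and 45.7 CPM in DKD (0.93 ± 0.25, adjusted p = 0.145, and 0.00518 without DKD replicate 1).

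Irf8, a factor of myeloid and B lineage cells, was at 11.6, 10.3 and 13.9 CPM in controls and 12.4, 16.5 and 18.5 CPM in DKD (log2 difference 0.40 ± 0.19, edgeR adjusted p = 0.299). Irf1, an early target of interferon-gamma, was at 11.6, 22.8 and 22.3 CPM in controls and 16.7, 30.6 and 24.9 CPM in DKD (0.35 ± 0.31, adjusted p = 0.57). The groups overlapped for both, and neither was called with DKD replicate 1 left out. In Irf1, replicate 1 was the lowest library of each group.

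The GBP family gave its clearest separation in Gbp3 and Gbp7. Gbp3 was at 5.77, 7.68 and 8.46 CPM in controls and 12.7, 29.3 and 27.1 CPM in DKD (log2 difference 1.65 ± 0.33, edgeR adjusted p = 0.103, and 0.00181 without DKD replicate 1). Gbp7 was at 4.70, 5.92 and 7.82 CPM in controls and 10.9, 22.1 and 23.6 CPM in DKD (1.62 ± 0.33, adjusted p = 0.106, and 0.00355). No DKD kidney overlapped the controls in either gene. Near-identical GBP copies could divide or share reads, so the values of single GBP genes are uncertain.

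In the other 3 GBP members the spread among controls was wide. Gbp2 was at 6.88, 12.7 and 20.1 CPM in controls and 16.7, 44.1 and 33.9 CPM in DKD (log2 difference 1.26 ± 0.48, edgeR adjusted p = 0.233). Gbp6 was at 7.00, 25.1 and 29.4 CPM in controls and 18.1, 52.7 and 51.0 CPM in DKD (0.99 ± 0.63, adjusted p = 0.428). Gbp4 was at 4.27, 16.0 and 14.0 CPM in controls and 10.2, 18.7 and 15.3 CPM in DKD (0.37 ± 0.48, adjusted p = 0.705). Control replicate 1 was the lowest library for all 3 genes, and DKD replicate 1 lay inside the control range for each. Without control replicate 1 the fitted difference of Gbp4 was -0.03.

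Among the IRG genes, Tgtp1 had the largest difference. It was at 6.21, 7.89 and 10.2 CPM in controls and 8.30, 53.3 and 42.1 CPM in DKD (log2 difference 2.09 ± 0.66, edgeR adjusted p = 0.185, and 0.00152 without DKD replicate 1). Its paralog Tgtp2 is nearly identical, so reads of the pair may not be separable. Iigp1, an effector IRG that loads onto parasite vacuoles, was at 4.76, 21.1 and 25.8 CPM in controls and 32.2, 35.3 and 34.9 CPM in DKD. The DKD kidneys lay close together above all controls, yet the difference of 0.99 ± 0.56 had an adjusted p of 0.38 (0.381 without DKD replicate 1), with the controls spread over a 5.41-fold range.

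The remaining IRG members overlapped between groups. Igtp (Irgm3) was at 14.2, 43.8 and 45.6 CPM in controls and 25.9, 48.0 and 43.4 CPM in DKD (log2 difference 0.18 ± 0.47, edgeR adjusted p = 0.861), and without control replicate 1 its difference was -0.20. Irgm1, a regulatory IRG on host membranes, was at 35.0, 79.4 and 69.8 CPM in controls and 54.9, 103 and 116 CPM in DKD (0.57 ± 0.38, adjusted p = 0.443). Irgm2 was at 14.7, 41.0 and 38.9 CPM in controls and 22.3, 56.1 and 56.0 CPM in DKD (0.51 ± 0.50, adjusted p = 0.611). In all 3, replicate 1 was the lowest library of both groups. None of them was called with DKD replicate 1 left out, at adjusted p of 0.659, 0.142 and 0.264.

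Set side by side, the 2 classes differed in the median size of the difference and in how the kidneys of a group spread, but neither class was uniform. The median log2 difference was 1.26 for the 5 GBP and 0.57 for the 5 IRG genes. Medians of the antiviral lists ran from 0.62 (nucleotide enzymes) to 2.42 (OAS and PKR branch), so the classes overlapped. The 35 tested antiviral genes had a median log2 difference of 1.41, with 34 higher and 22 over 1, and the 10 GTPases a median of 0.99, with 10 higher and 4 over 1. All DKD kidneys lay above all controls for 27 antiviral genes and for 3 GTPases (Gbp3, Gbp7 and Iigp1), against 13.8% of all genes. DESeq2 called 28 antiviral genes and 4 GTPases higher (6.22% of all genes), limma-voom 30 and 4 (9.94%), and edgeR without DKD replicate 1 called 30 and 3 (9.67%). The medians differed by 0.43, which fell to 0.15 without control replicate 3 and reached 0.70 without control replicate 1. Genes are not replicates of a condition, so no test of this difference between classes was made.

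The classes also differed in their spread among controls. For the GTPases the ratio of the highest to the lowest control had a median of 2.85 (range 1.47 to 5.41), against 1.39 for the antiviral genes (1.04 to 3.04) and 1.32 for all tested genes. Control replicate 1 was the lowest control for 10 of 10 GTPases and for 19 of 35 antiviral genes, against 39.4% of all genes. Relative to the control mean, the median GTPase was at -0.88, 0.49 and 0.47 on the log2 scale in the 3 controls, and the median antiviral gene at -0.16, 0.13 and 0.08. Without control replicate 1, the median difference of the GTPases was 0.56 and that of the antiviral genes 1.26, a fit in which Ifi44l also passed the filter.

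**Figure D2:**
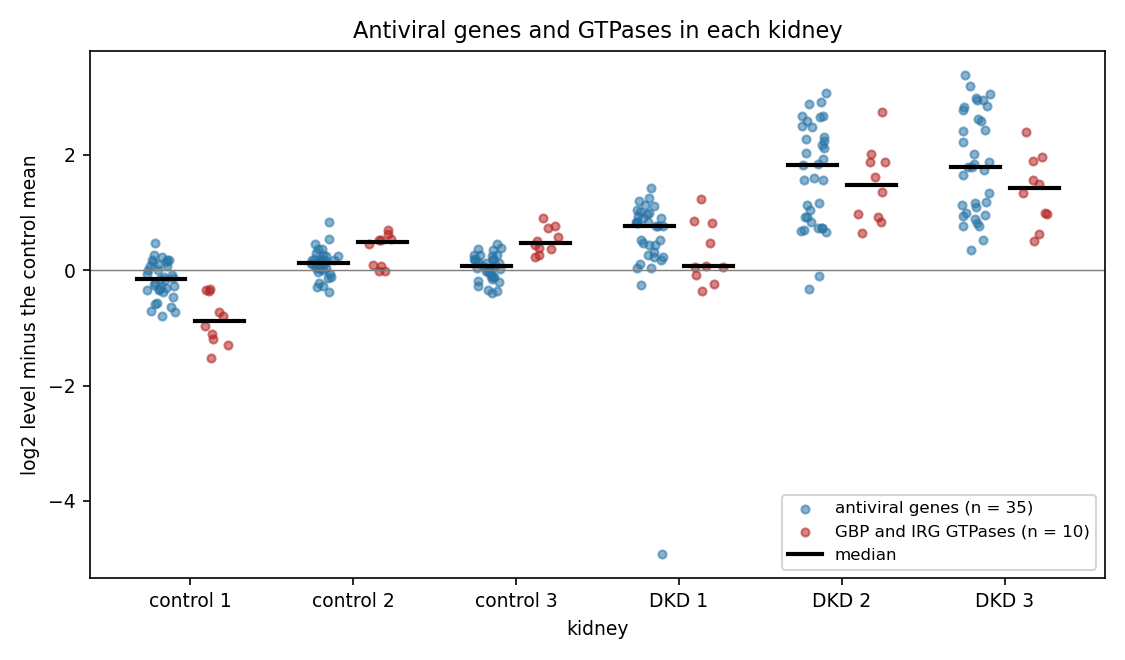
Level of every member by class and library, as the log2 difference from the control mean; points are genes and black bars are medians. The GTPase median is lowest in control replicate 1 (-0.88) and near the control mean in DKD replicate 1 (0.07), where the antiviral median is 0.77.

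The antiviral median minus the GTPase median was 0.72, -0.36 and -0.39 in the controls and 0.70, 0.34 and 0.37 in DKD. DKD replicate 1 thus separated the classes about as far as control replicate 1 did. Its median antiviral gene was 0.77 above the control mean on the log2 scale and its median GTPase 0.07 above, while DKD replicates 2 and 3 were at 1.82 and 1.79 for antiviral genes and at 1.48 and 1.42 for GTPases. In DKD replicate 1, 28 antiviral genes lay above all controls, 6 inside their range and 1 (Ifit2) below, whereas 3 GTPases lay above and 7 inside. The share of all tested genes above all controls in that library was 27.7%. DKD replicates 2 and 3 both lay above all controls for 33 antiviral genes and 8 GTPases, against 27.4% of all genes. Replicate 2 exceeded replicate 3 for 8 of 10 GTPases and for 6 of 35 antiviral genes, against 50.0% of all genes. Since control replicate 1 sets much of the lower end of the GTPase range, the counts above all controls for GTPases rest mainly on control replicates 2 and 3.

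**Figure D3:**
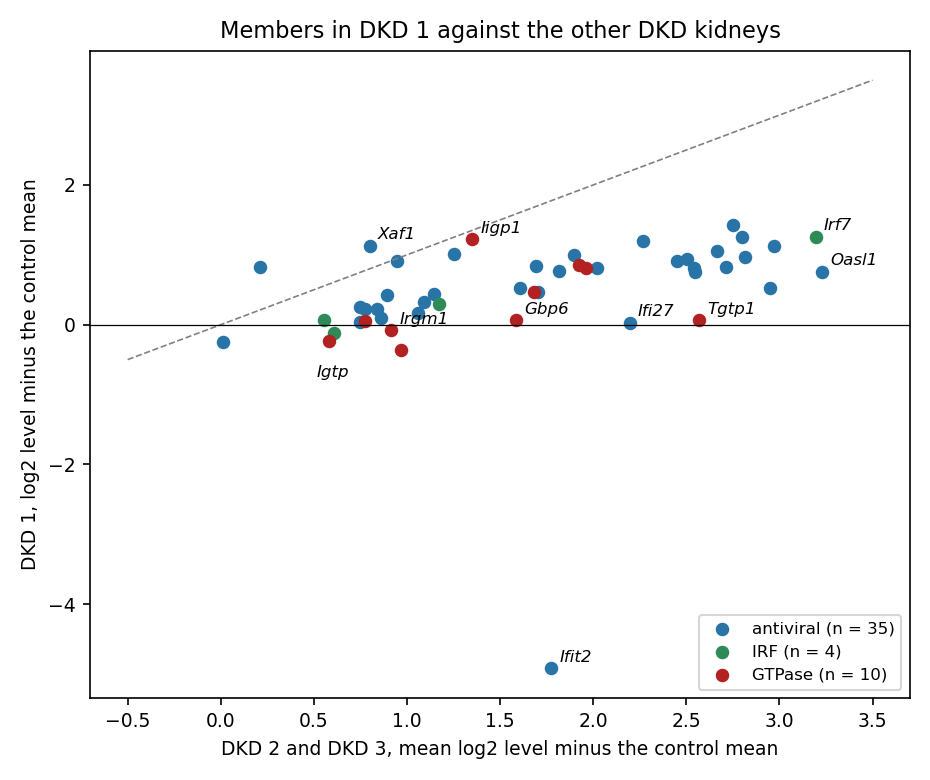
Each member's level in DKD replicate 1 (vertical axis) against the mean of DKD replicates 2 and 3 (horizontal axis), both as log2 differences from the control mean; the dashed line marks equality. Most members lie below the line, Ifit2 far below it, and Xaf1 and Ifitm1 above it.

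Summed markers of myeloid, T and NK, and B and plasma cells were higher in DKD replicates 2 and 3 than in the controls. In DKD replicate 1 the sums did not rise in this way, but single markers went both ways. Above all controls there lay 3 of 10 myeloid, 3 of 10 T and NK and 0 of 6 B and plasma cell markers, against 27.7% of all genes. Below all controls lay 3, 3 and 5 of them, respectively, against 4952 of 19197 genes. Myeloid markers, 10 genes, summed to 110, 105 and 126 CPM in controls and to 117, 178 and 230 CPM in DKD. Its largest parts, Csf1r and Lyz2, moved in opposite ways among the DKD libraries. Csf1r was at 74.1, 62.3 and 72.7 CPM in controls and 89.1, 58.2 and 66.3 CPM in DKD. Lyz2 was at 21.8, 26.1 and 32.1 CPM in controls and 10.8, 69.2 and 95.6 CPM in DKD. T and NK cell markers summed to 5.71, 6.29 and 6.0 CPM in controls and 6.29, 16.6 and 19.5 CPM in DKD. B and plasma cell markers summed to 8.78, 18.7 and 10.4 CPM in controls and 3.13, 65.4 and 65.2 CPM in DKD. In each sum DKD replicate 1 was inside, at the edge of or below the control range, and DKD replicates 2 and 3 were above it. Relative to the control mean on the log2 scale, the median myeloid marker was at -0.27, 1.56 and 2.01 and the median T and NK marker at -0.01, 1.54 and 1.75 in the 3 DKD kidneys. Of the T and NK markers, Cd3d, Cd8a and Nkg7 lay above all controls in DKD replicate 1, and Cd3e, Trac and Klrb1c lay below them. Klrb1c, an NK marker, had no count there and only 7 to 13 counts in controls. Within the T and NK list 8 genes had a higher fitted level (52.4% of all genes). Prf1 and Gzma had a lower one, with log2 differences of -0.40 and -0.59. Jchain alone was at 53.8 and 56.1 CPM in DKD replicates 2 and 3, most of the B and plasma cell sum. Of 6 neutrophil markers 2 passed the filter, with log2 differences of -0.12 (S100a8) and 0.60 (S100a9).

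Proximal tubule markers ran the other way, at sums of 16399, 15166 and 14819 CPM in controls and 12973, 9646 and 9407 CPM in DKD. Plasmacytoid dendritic cells are the strongest producers of interferon-alpha. Their marker Siglech was at 0.286, 0.303 and 0.282 CPM in controls and 0.184, 0.441 and 1.00 CPM in DKD, on 14 to 85 counts. DKD replicates 2 and 3 both lay above all controls for 3 of 6 listed markers of these cells, among them the member Bst2 (27.4% of all genes). The other listed genes, Cox6a2, Tcf4 and Klk1, had log2 differences of 0.02, 0.24 and 0.37. Klk1 was at 861 to 1754 CPM and Tcf4 at 16.8 to 25.2 CPM over the libraries, far above Siglech. Their levels in whole kidney therefore cannot be read as levels in these cells. The part that these cell populations play in the levels of interferon-stimulated genes was not tested. In whole kidney a change in the number of cells of a type and a change in RNA per cell cannot be told apart.

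Transcripts of the interferons themselves were close to the limit of detection. Of 20 interferon genes none passed the filter and 15 had no count in any library. Ifng was at 0, 0.182 and 0 CPM in controls and 0, 0 and 0.259 CPM in DKD, that is 12 and 22 counts in 1 library each, the highest count of any listed interferon. Ifnb1 had 3 counts in DKD replicate 2 and none elsewhere. A difference in ligand transcripts between groups was not detectable at this depth.

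The receptors gave small differences. Ifnar1 was at 42.0, 42.2 and 41.3 CPM in controls and 43.9, 43.2 and 41.9 CPM in DKD (log2 difference 0.04 ± 0.07, edgeR adjusted p = 0.80), and Ifnar2 had a difference of 0.16 ± 0.13 (0.519). Ifngr1 was at 27.5, 27.9 and 31.5 CPM in controls and 30.8, 43.6 and 43.2 CPM in DKD (0.44 ± 0.15, adjusted p = 0.191). Ifngr2 was at 16.0, 15.1 and 14.3 CPM in controls and 15.5, 23.4 and 21.0 CPM in DKD (0.40 ± 0.17, adjusted p = 0.254). In both chains of the interferon-gamma receptor DKD replicates 2 and 3 lay above the controls and DKD replicate 1 inside their range, and without that library edgeR called Ifngr1 (adjusted p = 0.0125) and Ifngr2 (0.0271) higher. The interferon-lambda receptor chains Ifnlr1 and Il10rb had differences of 0.12 ± 0.25 and 0.02 ± 0.11, whose sign changed under some alternatives.

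**Figure D4:**
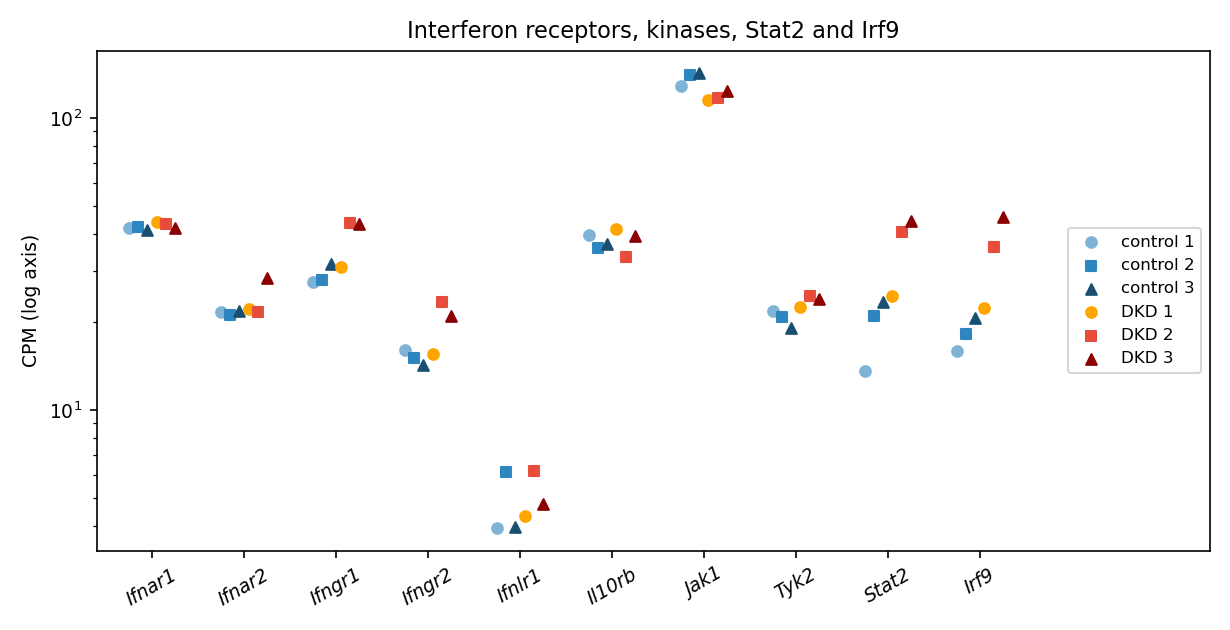
CPM on a log axis of the interferon receptors, the kinases Jak1 and Tyk2, and Stat2 and Irf9 in each library. Ifnar1 lies between 41.3 and 43.9 CPM in all 6 libraries, whereas Stat2 and Irf9 are highest in DKD replicates 2 and 3.

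Downstream of the receptors, Stat2 was at 13.6, 20.9 and 23.4 CPM in controls and 24.6, 40.8 and 44.2 CPM in DKD (log2 difference 0.92 ± 0.27, edgeR adjusted p = 0.162, and 0.0155 without DKD replicate 1). Stat2 did not overlap between groups. Jak1 was at 129, 140 and 142 CPM in controls and 115, 117 and 124 CPM in DKD (-0.21 ± 0.09, adjusted p = 0.26). Of 6 JAK and STAT genes listed, DESeq2 called 1 higher (6.22% of all genes), limma-voom 3 (9.94%), and with DKD replicate 1 left out edgeR called 3 (9.67%).

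Among 12 negative regulators the median difference was -0.01. Pias3, an inhibitor of activated STAT3, had a log2 difference of 0.36 ± 0.12 (edgeR adjusted p = 0.195). Socs3, a feedback inhibitor of cytokine receptors, was at 1.13, 2.44 and 2.45 CPM in controls and 2.00, 4.75 and 6.10 CPM in DKD (1.09 ± 0.48, adjusted p = 0.268, and 0.0389 without DKD replicate 1). Of 20 genes of nucleic acid sensing outside the 50 members, 13 had a higher fitted level, a share not far from the 52.4% of all genes, with a median of 0.28. DESeq2 called 3 of them higher (6.22% of all genes), limma-voom 8 (9.94%), and with DKD replicate 1 left out edgeR called 7 (9.67%).

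The sensing genes with the smallest p were Ifi204 and Zbp1. Ifi204, a DNA-binding protein of the interferon-inducible p200 family, was at 1.40, 2.18 and 2.41 CPM in controls and 3.80, 9.85 and 13.2 CPM in DKD (log2 difference 2.16 ± 0.47, edgeR adjusted p = 0.111, and 0.0032 without DKD replicate 1). Zbp1, a Z-nucleic acid sensor that can trigger necroptosis, was at 0.825, 1.92 and 1.26 CPM in controls and 2.78, 6.92 and 7.53 CPM in DKD (2.10 ± 0.47, adjusted p = 0.114, and 0.00692). The groups did not overlap for either gene.

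Other interferon-gamma-responsive genes were read beside the 10 GTPases. Of 9 further GBP and IRG genes tested, 9 had a higher fitted level (52.4% of all genes), with a median log2 difference of 1.18, and control replicate 1 was the lowest control for 7 (39.4% of all genes). Gbp5 was at 2.24, 1.77 and 2.20 CPM in controls and 2.39, 6.94 and 5.97 CPM in DKD (1.30 ± 0.40, edgeR adjusted p = 0.165, and 0.00565 without DKD replicate 1). Gbp2b had no count in any control and 20, 70 and 13 counts in DKD (edgeR adjusted p = 0.119, and 0.0366 without DKD replicate 1). No fitted difference is given for Gbp2b, since it would depend on the prior count, and near-identical copies make its reads uncertain. Of 15 other targets of interferon-gamma 14 had a higher fitted level, with a median of 0.78, and control replicate 1 was the lowest control for 14 of the 15.

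The chemokine Cxcl9, which draws in CXCR3-bearing T cells, was at 1.08, 1.35 and 2.44 CPM in controls and 4.37, 8.80 and 7.36 CPM in DKD, without overlap (log2 difference 2.07 ± 0.40, edgeR adjusted p = 0.103, and 0.00865 without DKD replicate 1). Serpina3g, a serine protease inhibitor, was at 0.926, 0.939 and 1.57 CPM in controls and 1.13, 8.23 and 10.6 CPM in DKD (2.54 ± 0.76, adjusted p = 0.165, and 0.00237). DKD replicate 1 was thus above all controls for Cxcl9 and inside their range for Serpina3g. For both genes control replicate 1 was the lowest of all 6 libraries, as it was for each of the 10 GTPases.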

How the data were processed

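Poly(A) RNA from mouse kidney was made into 6 strand-marked libraries and sequenced. The deposited table holds whole-number gene counts, and fastp, HISAT2, StringTie and edgeR with build GRCm39 are named in the submitters' processing notes; no version, gene annotation or strand option is given there. Without the strand option, overlapping and antisense genes cannot be told apart. Symbols were found for 55141 of 55401 identifiers in GENCODE M21, whose exon lengths gave levels per kilobase.

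Genes passing filterByExpr (19197) were fitted in R 4.3.3 with edgeR 4.0.16 (TMM, robust quasi-likelihood test, Benjamini-Hochberg over all genes, threshold 0.05). DESeq2 1.42.0, limma-voom (limma 3.58.1) with sample quality weights, 3 other scalings, 2 other filters, a replicate term and leaving out each library were alternatives. The scripts were tested on simulated data. Full statistics are given for the 3 members with the smallest p of each functional list and all 10 GTPases, and for the 2 genes with the smallest p of each pathway list, all receptors, Stat2 and Ifng; 1 further gene of that rule is not reported here, and Gbp2b, at 0 in controls, has no fitted difference. The members and lists were chosen with earlier results of these data known. Members are described by counts and medians with no test over the list. Promoters are RefSeq windows on GRCm38.p6, used for sequence only.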

Additional observations from a re-analysis of the deposited data

How the results depend on the processing

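Across all genes DESeq2 called 1749, limma-voom 3397 and edgeR without the filter on low counts 4, against 0 as reported, and leaving out single libraries gave 0 to 3101 (1 when DKD replicate 3 was left out, 7 for control replicate 1 and 3101 for DKD replicate 1). Of the members DESeq2 called 34, limma-voom 36 and the unfiltered fit 1, with 0 to 35 when a library was left out. Of the antiviral genes these numbers were 28, 30, 1 and 0 to 30, and of the GTPases DESeq2 and limma-voom each called 4, with 0 to 3 when a library was left out; the cause was not tested. The antiviral median ranged from 1.25 to 1.75 and the GTPase median from 0.56 to 1.37 when a library was left out, and the difference between them from 0.15 to 0.70. The sign turned when control replicate 1 was left out for Gbp4 (-0.03, range over left-out libraries up to 0.69) and Igtp (-0.20, up to 0.43). It also turned for Ifnlr1 (-0.04 without DKD replicate 2, up to 0.36) and for Il10rb, at -0.04 in limma-voom and from -0.06 to 0.11 over left-out libraries, with -0.01 for control replicate 2, -0.06 for DKD replicate 1 and -0.00 for DKD replicate 3. Of 58 named genes with a fit, most of them chosen for a small p, limma-voom and edgeR without DKD replicate 1 each called 41, where they called 9.94% and 9.67% of all genes higher, and DESeq2 called 36 of 57 (6.22%). Scaling by library size alone moved the median of all genes from 0.02 to 0.17. Same-numbered libraries of the groups correlated at 0.034, 0.023 and 0.034 in their deviations from group means, and each library correlated best with its own number. Libraries of different number correlated at -0.03 to 0.001. The labels do not say whether a number marks a pair or a batch, and correlations this small, from 3 libraries per group, cannot decide it. A replicate block gave 0 calls over all genes and 0 among the members, with medians of 1.41 for antiviral genes and 1.17 for GTPases, a difference of 0.24. Depth limits the interferon genes, none of which had more than 22 counts in a library.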

Other observations

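Among members with a RefSeq promoter window that passed the filter, the 21 with an ISRE match had a median log2 difference of 1.41 (range -0.06 to 2.55). The 15 without one had a median of 0.93 (range 0.35 to 2.79), and they included all 4 interferon regulatory factors and no GTPase. For the GAS match the order was the other way, with a median of 0.84 for the 14 members that had it and 1.30 for the 22 that did not. Those ranges, 0.18 to 2.42 and -0.06 to 2.79, overlapped as well. These medians are descriptions over genes, which are not replicates, and windows of neighbouring paralogs share sequence. Markers of endothelial cells, which line the kidney's vessels, summed to 167, 182 and 198 CPM in controls and 195, 219 and 248 CPM in DKD. Ccr9, a marker of plasmacytoid dendritic cells, was at 0.219, 0.318 and 0.197 CPM in controls and 0.276, 0.623 and 0.789 CPM in DKD. These levels rest on 13 to 67 counts, and not all listed markers of these cells rose (Cox6a2, log2 difference 0.02).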
